A study of Mus musculus with 11 samples.

Results

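The respiratory chain and the ATP synthase of the mitochondrial inner membrane were examined through 90 nuclear genes, out of 18193 genes on the arrays. The RNA came from pooled hearts of mouse embryos at day 9.5. The members were taken by gene symbol, without regard to their values: symbols that begin with Nduf (NADH dehydrogenase, complex I), Sdha to Sdhd (succinate dehydrogenase, complex II), Uqcr (cytochrome bc1, complex III), Cox4 to Cox8 (cytochrome c oxidase, complex IV) and Atp5 (ATP synthase, complex V). For each gene the probe set with the highest mean over the arrays was used. This gave 36 symbols for complex I subunits, 8 for complex I assembly factors (Ndufaf), 4 for complex II, 8 for complex III, 17 for complex IV and 17 for complex V. Subunits of these complexes that fall outside the symbol rule are not members.

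Conditional knockout (CKO) hearts carried Gata4 flox/flox with Nkx2-5 cre/+ (n = 5 arrays), double heterozygous hearts carried Gata4 flox/+ with Nkx2-5 cre/+ (n = 3), and control hearts carried Gata4 flox/+ with Nkx2-5 +/+ (n = 3). All hearts thus carried at least 1 floxed allele of Gata4, the gene of a transcription factor needed in early heart development. Cre was placed at Nkx2-5, which is expressed in heart muscle and its progenitors, so CKO and double heterozygous hearts also lacked 1 intact Nkx2-5 allele, and cells that never express Nkx2-5 keep the floxed alleles. Each array held RNA of pooled hearts, and nothing in the labels says that the replicates came from separate pools. The p-values therefore cover the spread among these arrays, which may be of technical origin. The number of arrays limits the precision.

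Complexes I and II pass electrons from NADH and succinate to coenzyme Q, complex III passes them on to cytochrome c, and complex IV passes them to oxygen. Complexes I, III and IV move protons across the inner membrane, and the ATP synthase lets them return and makes ATP. Most subunits are encoded in the nucleus, while a core set is encoded by mitochondrial DNA, and the complexes need dedicated assembly factors. Several subunits exist as paralogs used in different tissues or at low oxygen, and the early embryonic heart relies on glycolysis more than the later heart does.

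Gata4 had a pair of probe sets, and that with the highest mean read 9.53, 9.28, 9.45, 9.37 and 9.53 in the arrays labelled CKO, 9.40, 9.21 and 9.33 in double heterozygous arrays and 8.77, 9.09 and 9.09 in control arrays, in log2 units. By this probe set Gata4 was higher, not lower, in the arrays labelled CKO than in control arrays (log2 difference 0.45, SE 0.0967, limma adjusted p = 0.0321). The other probe set read 8.81, 6.42, 8.65, 8.44 and 8.26 in the arrays labelled CKO, 8.65, 8.40 and 8.27 in double heterozygous arrays and 7.98, 7.98 and 8.15 in control arrays. It was above the control arrays in 4 CKO arrays and below them in CKO replicate 2, with a difference of 0.08 (SE 0.378, adjusted p = 0.958). The sources used here do not say whether either probe set lies in the deleted part of the gene, so they do not check the labels, and every CKO value below is that of arrays labelled CKO. Mean deposited intensity was 117.2 in CKO replicate 3 and 166.4 to 175.6 in the other 10 arrays. In CKO replicate 2 the 3' beta-actin probe set exceeded the 5' one by 1 log2 unit, against 0.29 to 0.45 in the others, a measure that rises when RNA is less intact or less fully copied. The 16 cardiomyocyte markers were all measured, and their summed intensity was 83725 to 90440 in CKO, 85354 to 88421 in double heterozygous and 85983 to 87646 in control arrays. Values below are log2(intensity + 16) after quantile normalisation, and a gene was called changed at a Benjamini-Hochberg adjusted p under 0.05 over all 45037 probe sets tested. On this scale a deposited 0 lies near 4, and fold changes of dim genes are understated.

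Short promoter sequences are shown first, because they show what part of the members shares near the start of transcription. RefSeq promoters (GRCm38.p6, 250 bases before to 50 bases after the start) were matched for 74 of the 90 members and gave 79 promoters. The letters GCATGCGC, part of the site bound by nuclear respiratory factor 1 (NRF1), a regulator of nuclear genes for mitochondrial proteins, were found on either strand in 13.9% of member promoters, against 2.71% of all 32851 promoters. They were found in 11 members, which came from every complex. The 28-base windows below are those of complex I assembly factors Ndufaf4 and Ndufaf5 and, for each complex, of the member with the most negative difference between CKO and control arrays among those with a match. Capitals mark the NRF1 letters.
Ndufa8, chr2:36049329-36049356, minus strand: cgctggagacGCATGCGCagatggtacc
Ndufaf5, chr2:140170654-140170681, plus strand: tcccgttggcGCATGCGCctaatagaaa
Ndufaf4, chr4:24897962-24897989, plus strand: agatgtctgcGCATGCGCctgtgcggaa
Sdhb, chr4:140961207-140961234, plus strand: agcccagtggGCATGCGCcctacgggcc
Uqcrc1, chr9:108936670-108936697, plus strand: tccgctctgcGCATGCGCagcgcggctc
Cox6a1, chr5:115349101-115349128, minus strand: ggaacggggcGCATGCGCgctctcgctc
Atp5l, chr9:44920965-44920992, minus strand: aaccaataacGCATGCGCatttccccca
The other members with these letters were Atp5g2, Atp5k, Ndufa6 and Uqcr11. ETS-family letters (CCGGAAG, the core bound by GABP) were found in 24.1% of member promoters, against 8.86% of all promoters. The letters AAGATGGC, the core of the YY1 site, were found in 12.7% of member promoters, against 2.75%, and AAGGTCA, bound by estrogen-related receptors, in 10.1%, against 4.72%. The core of the hypoxia response element, ACGTG, was found in 25.3%, against 19.6%, and GATA letters (AGATAA) in 7.59%, against 11.2%. A match of letters is a description of the window and not evidence of binding.

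Of the 5 members called between CKO and control hearts, 3 had a promoter in that table, and these are printed in full. Capitals mark the hypoxia and GATA letters given above and the CCAAT box. Each was searched on both strands, and a CCAAT box was found in 41.8% of member promoters, against 37.4% of all.
Ndufv3, chr17:31519865-31520164, plus strand: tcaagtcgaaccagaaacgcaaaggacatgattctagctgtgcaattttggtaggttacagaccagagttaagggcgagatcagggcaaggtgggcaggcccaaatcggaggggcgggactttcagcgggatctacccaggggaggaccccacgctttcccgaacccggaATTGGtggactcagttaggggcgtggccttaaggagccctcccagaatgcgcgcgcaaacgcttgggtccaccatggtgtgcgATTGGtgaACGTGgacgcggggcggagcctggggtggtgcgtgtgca
Ndufaf2, chr13:108158576-108158875, minus strand: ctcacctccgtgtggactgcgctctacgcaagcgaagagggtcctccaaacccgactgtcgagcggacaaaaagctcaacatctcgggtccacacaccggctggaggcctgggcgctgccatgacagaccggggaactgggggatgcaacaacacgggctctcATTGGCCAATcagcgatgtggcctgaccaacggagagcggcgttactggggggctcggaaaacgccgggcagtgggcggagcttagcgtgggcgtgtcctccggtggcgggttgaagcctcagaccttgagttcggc
Atp5g1, chr11:96075582-96075881, minus strand: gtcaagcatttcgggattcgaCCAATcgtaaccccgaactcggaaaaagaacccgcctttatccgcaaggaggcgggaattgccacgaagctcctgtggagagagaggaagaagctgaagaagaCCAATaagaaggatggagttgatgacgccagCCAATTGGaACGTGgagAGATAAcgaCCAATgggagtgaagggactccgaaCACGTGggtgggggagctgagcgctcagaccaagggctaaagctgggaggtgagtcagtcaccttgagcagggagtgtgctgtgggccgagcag
Ndufv3, which was higher in CKO hearts, held 1 ACGTG and 2 CCAAT matches. Ndufaf2, which was lower, held 2 CCAAT matches that adjoin each other, 1 on each strand. Atp5g1, also lower, held 3 ACGTG matches, of which 2 overlap as CACGTG, together with 1 AGATAA and 5 CCAAT matches. None of the 3 windows held the NRF1 letters, which says only that these letters are not in these windows.

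The first comparison asked how the chain's transcripts differed between hearts labelled CKO and controls without Cre. Most members had slightly lower means in CKO hearts, and few moved far. The median log2 difference over the 90 members was -0.13, with 72 lower and 18 higher means. Over all 18193 genes the median was -0.02 and 53.2% of means were lower. Over the 783 bright genes, those with a mean log2 of at least 10, among which 62 members lie, the median was -0.03 and 56.8% were lower. In bulk hearts, fewer cells of a type and less RNA per cell cannot be told apart.

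Of the 90 members, 5 were called: Ndufa4l2 and Ndufv3 were higher, and Ndufaf2, Ndufaf6 and Atp5g1 were lower. In the same test 2.09% of all genes were called, and 5.87% of genes with a mean of at least 10, against 5.56% of members. Only 62 of the 90 members are bright, and of the 5 called, Ndufa4l2, Ndufaf2 and Ndufaf6 are not. Their mean log2 was 6.22, 8.32 and 7.16, so the bright-gene share is not a like-for-like measure. By direction, 1.25% of all genes were called higher and 0.841% lower, and 3.96% and 1.92% of bright genes. At an unadjusted p under 0.05 there were 36 members, 31 of them lower, against 15.5% of all genes (9.14% lower) and 30.7% of bright genes (17% lower). In 27 members every CKO array lay below every control array, and in 3 members (Ndufa4l2, Ndufv3 and Cox4i2) every CKO array lay above. Over all genes these shares were 7.55% and 4.7%, and over bright genes 13.7% and 9.58%.

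**Figure D1:**
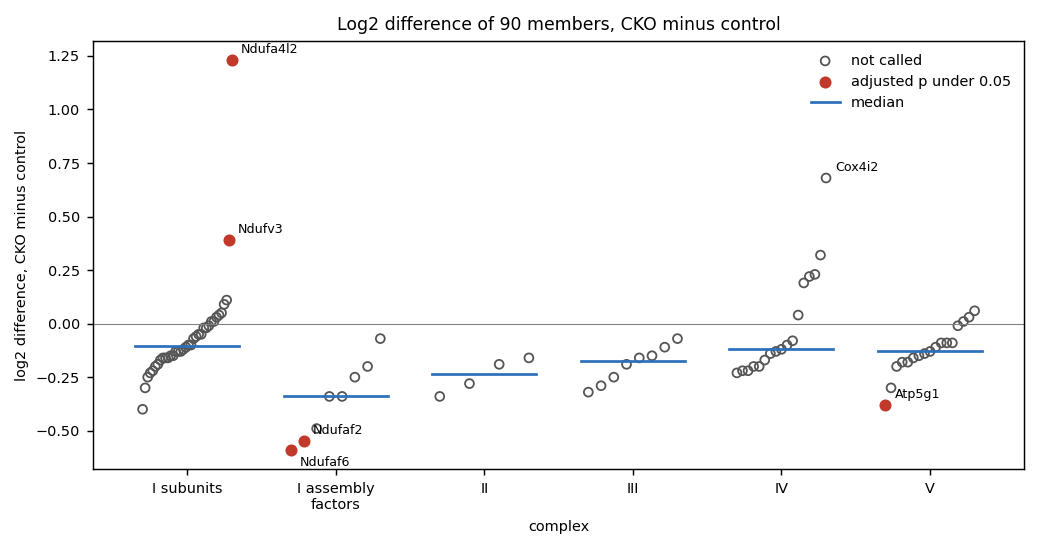
Log2 difference of CKO minus control for the 90 members (vertical axis), by complex (horizontal axis). Each circle is 1 gene, filled red circles have an adjusted p under 0.05, and blue lines are medians. Ndufa4l2 stands at 1.23 and Cox4i2 at 0.68, while the medians lie between -0.34 for complex I assembly factors and -0.10 for complex I subunits.

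The size of the shift differed from array to array. The median of the 90 members, relative to the control mean of each gene, was -0.06, -0.02, -0.16, -0.26 and -0.18 in CKO replicates 1 to 5. It was -0.08, 0.04 and -0.10 in double heterozygous arrays and 0.02, -0.02 and -0.01 in control arrays. CKO replicate 4 was the lowest, CKO replicate 2 lay at the edge of the control range, and the CKO and double heterozygous ranges overlapped. On the array with the strongest shift, CKO replicate 4, 80 of 90 members lay below their control mean, against 48 on CKO replicate 2.

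Complex I assembly factors had the most negative median of the groups, -0.34, and complex II followed with -0.24. Complex III had a median of -0.17, complex V of -0.13, complex IV of -0.12 and complex I subunits of -0.10. Means were lower for 8 of 8 assembly factors, 4 of 4 complex II genes, 8 of 8 complex III genes, 14 of 17 complex V genes, 11 of 17 complex IV genes and 27 of 36 complex I subunits. The assembly factors' median by array was -0.23, -0.18, -0.39, -0.59 and -0.36 in CKO arrays, against -0.04, -0.03 and -0.17 in double heterozygous and 0.08, -0.02 and -0.03 in control arrays. These CKO values all lay below those of the other 6 arrays. For complex II the CKO medians were -0.15, -0.28, -0.22, -0.30 and -0.33, against -0.03, 0.11 and -0.11 in double heterozygous and 0.06, -0.06 and 0.01 in control arrays, again with no overlap. For complexes I, III, IV and V the CKO medians overlapped those of double heterozygous arrays. The median of the complex I subunits was -0.05 without CKO replicate 4 and -0.16 without CKO replicate 2. These are descriptions of small groups of genes, and no test between complexes was made.

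**Figure D2:**
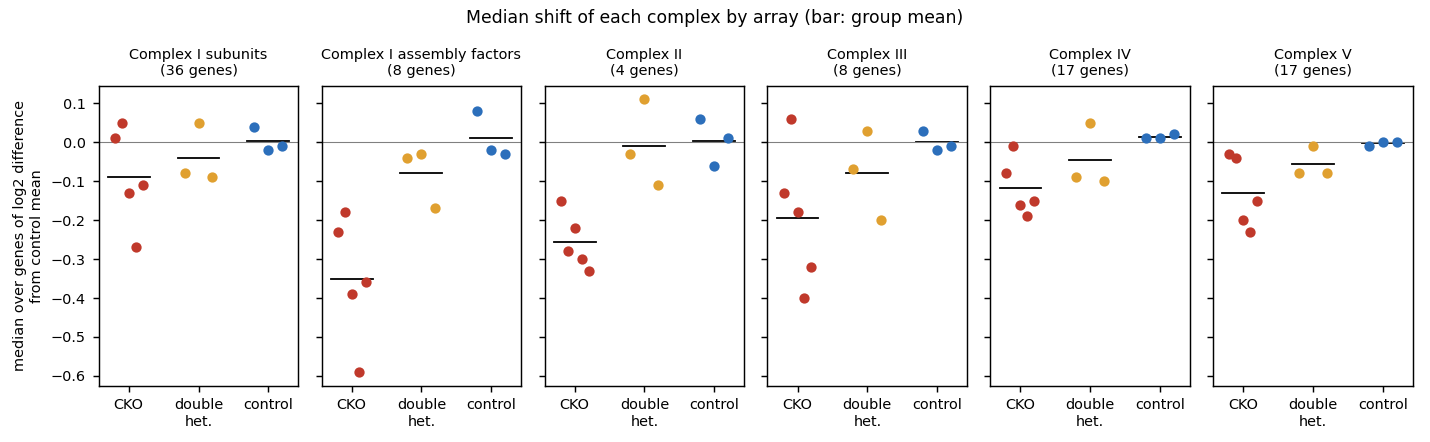
Median over genes of the log2 difference from each gene's mean in control arrays (vertical axis), by array, in 6 panels by complex, with CKO, double heterozygous and control arrays from left to right. Points are arrays and bars are group means. The 5 CKO arrays lie below all others for complex I assembly factors (-0.59 to -0.18) and complex II (-0.33 to -0.15), and overlap the double heterozygous arrays for the other 4 groups.

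Among complex I genes, the largest difference was that of Ndufa4l2, a paralog of Ndufa4 that is known as a target of hypoxia-inducible factor (HIF) and as a brake on complex I activity. It read 6.48, 7.37, 6.92, 6.58 and 7.22 in CKO arrays, 5.43, 5.49 and 5.83 in double heterozygous arrays and 5.70, 5.97 and 5.37 in control arrays. Every CKO array lay above all 6 others, and the other groups overlapped. The log2 difference from control was 1.23 (SE 0.207, limma adjusted p = 0.00692), a 2.35-fold higher value. It lies in the dim range, where the offset matters: the difference was 1.55 with an offset of 1 and 0.77 with an offset of 64. The call was lost without control replicate 1 (1.23, adjusted p = 0.0542) or control replicate 3 (1.08, adjusted p = 0.0698).

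Ndufa4 itself, first described as a complex I protein and now placed in complex IV, read 10.91, 11.01, 10.94, 10.76 and 10.73 in CKO arrays, 10.77, 10.61 and 10.78 in double heterozygous arrays and 10.78, 10.71 and 10.80 in control arrays. The groups overlapped, and the log2 difference from control was 0.11 (SE 0.0759, limma adjusted p = 0.616), with its sign turned to -0.06 on the deposited scale and -0.07 after median centring.

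Ndufv3, an accessory subunit of the NADH-binding flavoprotein part of complex I, read 11.48, 11.64, 11.30, 11.22 and 11.45 in CKO arrays, 11.04, 11.09 and 11.17 in double heterozygous arrays and 11.05, 10.98 and 11.05 in control arrays. Besides Ndufa4l2 it was the only gene among the complex I subunit symbols called higher, by 0.39 (SE 0.0824, limma adjusted p = 0.0300), a 1.31-fold higher value. Its CKO arrays did not overlap the others. The other 34 complex I subunits ranged from -0.40 to 0.11, and none was called. The most negative, chosen after its values were seen, was Ndufs1, the iron-sulfur subunit of the NADH-oxidising arm, which read 10, 9.72, 9.99, 9.88 and 9.64 in CKO arrays, 10.12, 10.37 and 10.06 in double heterozygous arrays and 10.28, 10.20 and 10.24 in control arrays. Its difference of -0.40 (SE 0.0963) did not pass the test (limma adjusted p = 0.0589), although no CKO array reached a control array. Ndufs8, another iron-sulfur subunit, also singled out after its values were seen, had a difference of -0.30 (adjusted p = 0.225) and lower means in each of its 6 probe sets.

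Complex I assembly factors are proteins that build the complex and are not part of it. Ndufaf2, which acts late in assembly, when the NADH-oxidising arm is joined, read 8.32, 8.13, 8.14, 7.83 and 7.84 in CKO arrays, 8.48, 8.59 and 8.44 in double heterozygous arrays and 8.69, 8.60 and 8.51 in control arrays. All CKO arrays lay below all others, and the gene fell by 0.55 on the log2 scale relative to control (SE 0.116, limma adjusted p = 0.0300), a 1.46-fold lower value. Ndufaf6, needed for the membrane-bound core that holds the mitochondrially encoded subunit ND1, read 6.99, 7.09, 6.74, 6.87 and 6.81 in CKO arrays, 7.27, 7.44 and 7.08 in double heterozygous arrays and 7.58, 7.52 and 7.36 in control arrays. It fell by 0.59 (SE 0.122, limma adjusted p = 0.0276), a 1.5-fold lower value, and the CKO arrays did not overlap the control arrays but reached the lowest double heterozygous array.

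The other 6 assembly factors had differences from -0.49 to -0.07 and were not called. Ndufaf5, an enzyme that modifies the subunit Ndufs7 and whose promoter window is printed above, read 7.16, 7.18, 6.87, 6.83 and 6.63 in CKO arrays, 7.44, 7.54 and 7.23 in double heterozygous arrays and 7.49, 7.41 and 7.37 in control arrays. No CKO array reached the other arrays, and its difference was -0.49 (SE 0.136, limma adjusted p = 0.100). Ndufaf4, a partner of Ndufaf3 in early assembly, had a difference of -0.34 (adjusted p = 0.0635), and its second probe set of -0.33. Ndufaf3 stood at -0.34 (0.248), Ndufaf8 at -0.25 (0.339), Ndufaf1 at -0.20 (0.399) and Ndufaf7 at -0.07 (0.862), with limma adjusted p in parentheses. In 7 of the 8 assembly factors every CKO array lay below every control array, against 7.55% of all genes. Ndufaf3, Ndufaf4, Ndufaf5, Ndufaf8, Ndufaf1 and Ndufaf7 were described here because they complete the group, after their values were seen.

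**Figure D3:**
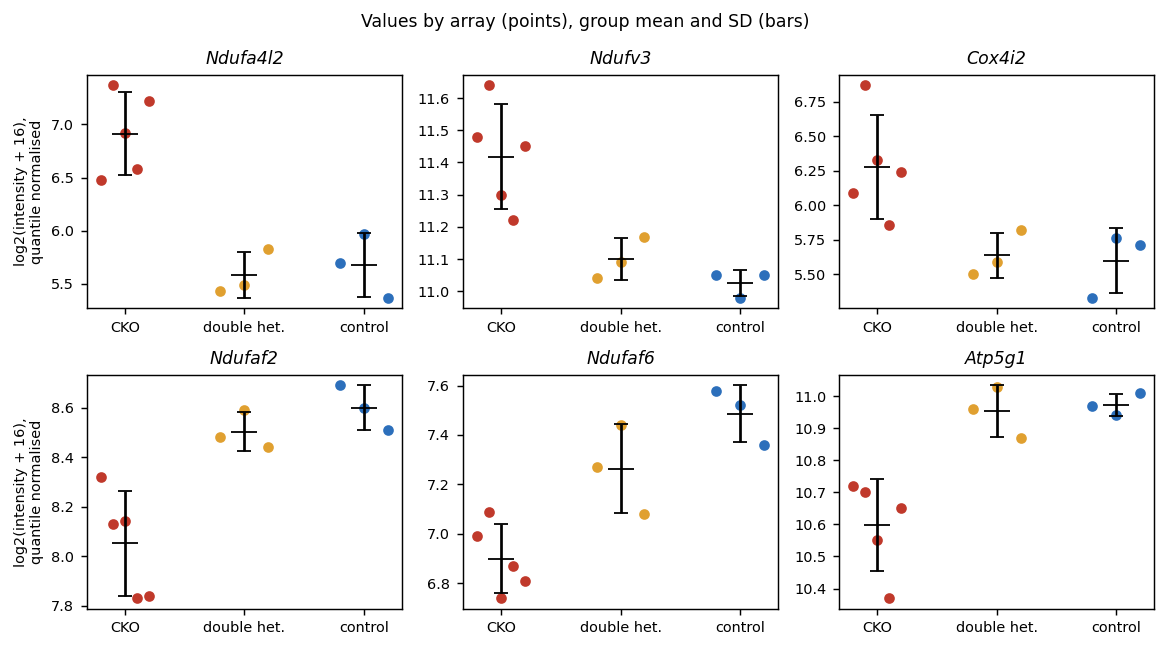
Values by array, as log2(intensity + 16) after quantile normalisation (vertical axes, each with its own range), in CKO, double heterozygous and control arrays from left to right. Points are arrays, bars are group means with SD. Ndufa4l2, Ndufv3 and Cox4i2 are higher in all 5 CKO arrays than in the other 6, and Ndufaf2 and Atp5g1 are lower. For Ndufaf6 the CKO arrays end at 7.09, above the lowest double heterozygous array at 7.08.

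Complex II also serves the citric acid cycle and is the only complex here with all of its subunits encoded in the nucleus. Sdhd, one of its membrane anchors, read 10.43, 10.28, 10.31, 10.18 and 9.98 in CKO arrays, 10.60, 10.77 and 10.48 in double heterozygous arrays and 10.69, 10.51 and 10.53 in control arrays. All CKO arrays lay below all others, with a difference from control of -0.34 (SE 0.0974) that did not pass the test (limma adjusted p = 0.109). Sdhb, the iron-sulfur subunit, had a difference of -0.28 (adjusted p = 0.147), with CKO arrays at 10.65 to 10.96 and control arrays at 11.06 to 11.17. Sdhc, the other anchor, stood at -0.19 (adjusted p = 0.421) and Sdha, the flavoprotein, at -0.16 (adjusted p = 0.296). None of the 4 was called.

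In complex III, the smallest p belonged to Uqcrfs1, the Rieske iron-sulfur protein that takes electrons from reduced coenzyme Q. It read 10.72, 10.59, 10.76, 10.67 and 10.57 in CKO arrays, 10.91, 11.12 and 10.76 in double heterozygous arrays and 10.97, 10.97 and 11.01 in control arrays. The CKO arrays lay below the control arrays, with a difference of -0.32 (SE 0.0793, limma adjusted p = 0.0650). Uqcrq, a small subunit, stood at -0.29 (adjusted p = 0.287), while its 3 other probe sets, all dim, read 0.39, -0.26 and -0.12. Uqcrc2, a core protein, stood at -0.15 (0.448), Uqcr11 at -0.11 (0.826) and Uqcrb, a ubiquinone-binding subunit, at -0.07 (0.595), with adjusted p in parentheses. The sign of Uqcr11 turned in the fit with the replicate number as a block, which rests on CKO replicates 1 to 3. No complex III member was called. Cyc1, the cytochrome c1 subunit of the same complex, lies outside the symbol rule and fell by 0.40 (SE 0.0822, limma adjusted p = 0.0276).

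In complex IV no member was called in either direction, and the differences of the paralogs had both signs. Cox4i2, the isoform of the regulatory subunit 4 that is known to be induced at low oxygen, read 6.09, 6.87, 6.33, 5.86 and 6.24 in CKO arrays, 5.50, 5.59 and 5.82 in double heterozygous arrays and 5.33, 5.76 and 5.71 in control arrays. Every CKO array was above the other 6, with a difference from control of 0.68 (SE 0.197), but the test was not passed (limma adjusted p = 0.117). Cox4i1, the common isoform, read 11.74, 11.77, 11.67, 11.57 and 11.65 in CKO arrays, 11.78, 11.95 and 11.76 in double heterozygous arrays and 11.90, 11.91 and 11.89 in control arrays. All CKO arrays lay below all control arrays, and its difference was -0.22 (SE 0.063, adjusted p = 0.117).

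The remaining complex IV paralogs had differences between -0.20 and 0.32, none of them called. Cox6a1 stood at -0.20 (limma adjusted p = 0.0977) and its muscle isoform Cox6a2 at -0.13 (0.689). Cox6b1 stood at -0.20 (0.263) and Cox6b2, known from testis, at 0.23 (0.631). Cox7a1, the heart and muscle isoform, stood at 0.32 (0.367), Cox7a2 at -0.14 (0.340) and Cox7a2l, a factor in joining complexes III and IV into supercomplexes, at 0.22 (0.353). Cox8a stood at -0.17 (0.430), the muscle isoform Cox8b at -0.10 (0.870) and Cox8c at 0.19 (0.791). Cox5a, a nuclear subunit present in all tissues, stood at -0.22 (0.114). Its other probe sets, also bright with means of 11.86 and 11.18, read -0.04 and 0.05, so they did not share that difference. The signs of Cox6a2, Cox8b and Cox8c turned under at least 1 other setting, so no direction is given for them.

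The ATP synthase had 1 called member. Atp5g1 is 1 of 3 genes that encode the same mature c subunit, the protein of the rotating membrane ring, with different import peptides. It read 10.72, 10.70, 10.55, 10.37 and 10.65 in CKO arrays, 10.96, 11.03 and 10.87 in double heterozygous arrays and 10.97, 10.94 and 11.01 in control arrays. All CKO arrays lay below all others, and the gene fell by 0.38 on the log2 scale relative to control (SE 0.0797, limma adjusted p = 0.0300), a 1.3-fold lower value. Its other probe set, at a dim mean of 5.21, read 0.04, and the call did not hold for the mean of both probe sets (-0.17, adjusted p = 0.588).

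The other c-subunit genes did not pass the test. Atp5g2 read 11.05, 10.91, 11.04, 10.80 and 11.10 in CKO arrays, 10.93, 11.10 and 11 in double heterozygous arrays and 11, 10.84 and 11 in control arrays, a difference of 0.03 (SE 0.0774, limma adjusted p = 0.904) whose sign turned with the scaling. Atp5g3 stood at -0.09 (SE 0.0619, adjusted p = 0.589). Among the other subunits, Atp5a1, the alpha subunit of the catalytic head, stood at -0.18 (0.167) and Atp5c1, the gamma subunit of the central stalk, at -0.20 (0.228). Atp5e, the epsilon subunit, stood at 0.06 (0.907), and its sign also turned with the scaling. The 17 complex V members ranged from -0.38 to 0.06.

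**Figure D4:**
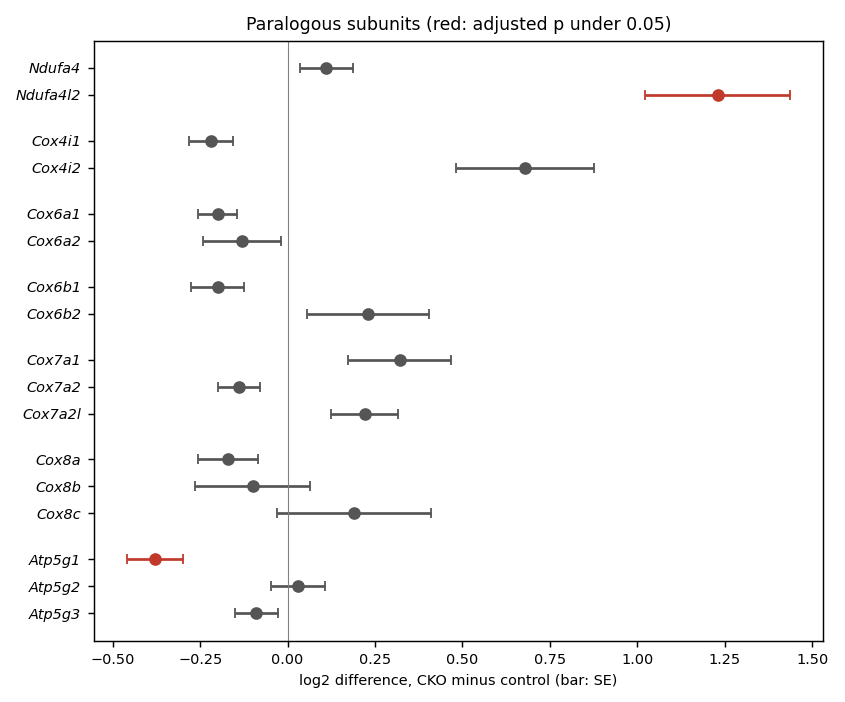
Log2 difference of CKO minus control (horizontal axis, bars are SE) for 7 sets of paralogous subunits, one gene per line and the sets apart from each other. Red points have an adjusted p under 0.05. Ndufa4l2 (1.23) and Cox4i2 (0.68) lie right of their partners Ndufa4 (0.11) and Cox4i1 (-0.22), and Atp5g1 (-0.38) lies left of Atp5g2 (0.03) and Atp5g3 (-0.09).

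The calls of Ndufv3, Ndufaf2, Ndufaf6 and Atp5g1 were each lost when CKO replicate 5, double heterozygous replicate 1 or any of the 3 control arrays was left out, with limma adjusted p from 0.0522 to 0.201 and with the same signs. With CKO replicate 2 left out, 8 members were called in place of 5, and with CKO replicates 2 and 3 both left out, 11. Calls over all tested probe sets rose as well, from 377 higher and 255 lower to 478 and 419, and to 780 and 582. The other 89 probe sets of the member genes had lower means in 71 cases and the sign of the probe set used in 69, and none of them was called.

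The scaling of the arrays set the size of the common shift. The median difference of the 90 members was -0.13 after quantile normalisation, -0.29 on the deposited scale and -0.30 after median centring. The median of all genes with a mean of at least 10 moved as well: it was -0.17 on the deposited scale, -0.18 after median centring and -0.03 after quantile normalisation, so the members lay below those genes by a similar margin in each case. Without CKO replicate 3, the dim array, the members' median was -0.26 after median centring, against -0.16 for the bright genes. On the deposited scale without that array it was -0.17, against -0.07 for the bright genes.

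**Figure D5:**
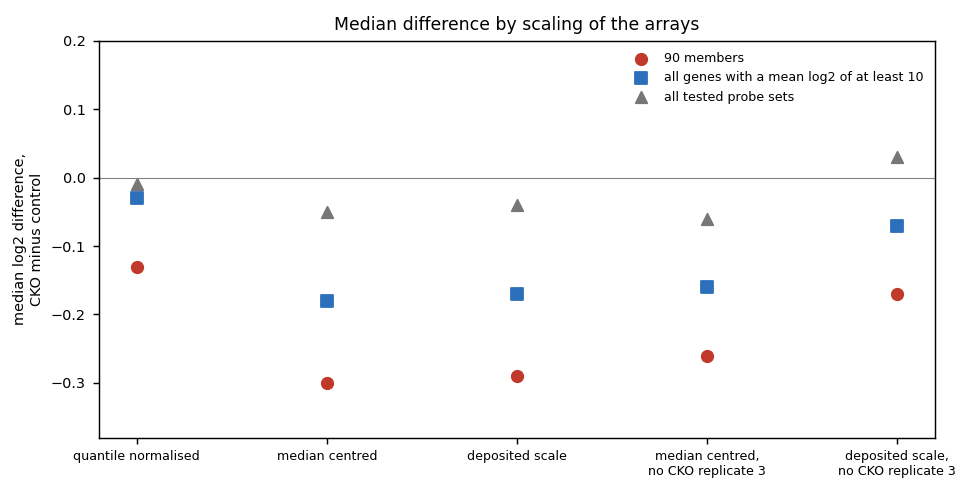
Median log2 difference of CKO minus control (vertical axis) under 5 scalings of the arrays (horizontal axis). Red circles are the 90 members, blue squares all genes with a mean log2 of at least 10, grey triangles all tested probe sets. The members lie below the bright genes in every setting drawn, and both lie lower after median centring and on the deposited scale than after quantile normalisation.

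The second comparison set CKO hearts against double heterozygous hearts, which share the Cre allele. Only Ndufa4l2 was called among the members, against 0.55% of all genes and 1.79% of bright genes. It was higher by 1.33 (SE 0.207, limma adjusted p = 0.00993), a 2.52-fold higher value, and the call was lost without double heterozygous replicate 1 (1.25, adjusted p = 0.117) or replicate 2 (1.27, adjusted p = 0.0896). The members' median was -0.09, with 66 lower and 24 higher means, against a median of -0.01 over all genes (52.3% lower) and -0.03 over bright genes (58.1% lower). This shift rested partly on single arrays: the members' median was -0.03 with 54 lower means without double heterozygous replicate 2, and -0.05 with 56 lower means without CKO replicate 4. It was -0.06 without CKO replicate 5. By group the medians were -0.31 for complex I assembly factors, -0.21 for complex II, -0.13 for complex III, -0.07 for complex V and -0.05 for both complex I subunits and complex IV. Atp5g1 stood at -0.35 (adjusted p = 0.0795), Ndufaf2 at -0.45 (0.128), Ndufv3 at 0.32 (0.131), Cox4i2 at 0.64 (0.204) and Ndufaf6 at -0.36 (0.251). In 10 members every CKO array lay below every double heterozygous array, and in 4 every one lay above. Over all genes these shares were 5.54% and 3.65%, and over bright genes 12% and 7.15%. Not all members are bright, so the bright-gene shares are not a like-for-like measure.

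The third comparison set double heterozygous hearts against control hearts. By limma no member was called, and neither was any of the 45037 probe sets (0% called; 1435 probe sets, 3.19%, at an unadjusted p under 0.05). At that unadjusted threshold there was 1 member, Cox7b2, near the lowest values of the arrays. The median was -0.04 (-0.02 without double heterozygous replicate 3 and -0.09 without replicate 2), with 74 lower and 16 higher means, against 51.2% lower means over all genes and 49% over bright genes. Double heterozygous replicate 2 did not share the shift, with a member median of 0.04, and CKO and double heterozygous hearts were compared with the same 3 control arrays. The F-test over the 3 genotypes called 4 of 90 members (Ndufa4l2, Ndufv3, Ndufaf2 and Atp5g1). It called 1.47% of all genes and 4.47% of bright genes. Of the 4 members, Ndufa4l2 and Ndufaf2 are not bright, so the bright-gene share is not a like-for-like measure. Ndufaf6 had an F-test adjusted p of 0.0575.

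Genes that serve the same complexes were counted from lists. Of 40 other assembly factors measured, 33 had lower means in CKO than in control hearts, with a median of -0.21. Cox18, which inserts a mitochondrially encoded complex IV subunit into the membrane, was the 1 that was called, lower by 0.44 (SE 0.0964, limma adjusted p = 0.0367). Of 18 electron carriers and coenzyme Q synthesis genes, 17 had lower means, with a median of -0.19, and Cyc1 alone was called. Of 12 genes for ATP export, phosphate import and creatine kinase, 7 had lower means and 0 were called by limma (4 at an unadjusted p under 0.05), with a median of -0.02. Of 23 regulators of mitochondrial biogenesis, 14 had lower means and 0 were called (2 at an unadjusted p under 0.05), with a median of -0.06. Genes of some of the factors whose letters were searched above were named after their values were seen. They were Nrf1 at 0.26 (adjusted p = 0.427), Gabpa, a subunit of GABP, at -0.06 (0.886) and Esrra, an estrogen-related receptor, at -0.26 (0.493). The gene of YY1 is not among those given.

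Ndufa4l2 and Cox4i2 are known as HIF targets, and 9 further HIF targets that act on mitochondria were measured. Of these, 7 had higher means in CKO than in control hearts and 2 had lower means, with a median of 0.50 and a range from -0.29 to 0.79. All 4 that were called were higher, against 1.25% of all genes called higher. In 5 of the 9 every CKO array lay above every control array, and in 1 every CKO array lay below. Over all genes these shares were 4.7% and 7.55%. Bnip3, a mitophagy receptor, rose by 0.79 (SE 0.0959, limma adjusted p = 0.000566). Pdk1, a kinase that holds back pyruvate entry into the citric acid cycle, rose by 0.56 (SE 0.0921, adjusted p = 0.00592). Higd1a, an inner membrane protein that associates with complex IV, rose by 0.50 (SE 0.079, adjusted p = 0.00457). Mxi1, a MAX partner that opposes MYC and the fourth gene called, named after its values were seen, rose by 0.68 (SE 0.133, adjusted p = 0.0205). These lists were drawn up with earlier results of the same arrays known, so their counts describe these arrays and are not independent evidence.

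Markers of some other cell types differed between the genotypes, and their part in the results above was not tested. Of 12 endothelial and endocardial markers, 11 had higher means in CKO than in control hearts (median 0.33), with Sox17, Kdr and, named after its values were seen, Cdh5 called higher and Tek lower. Their summed intensity was 3468 to 4060 in CKO, 2954 to 3135 in double heterozygous and 3020 to 3143 in control arrays. Of 9 proepicardial and mesothelial markers, 8 had lower means (median -0.88), with Tcf21 and Lrrn4 called lower and sums of 437 to 1085, 627 to 989 and 1262 to 1365 in CKO, double heterozygous and control arrays. These markers were lower in double heterozygous than in control hearts too (9 of 9 lower means, median -0.54, none called by limma and 6 at an unadjusted p under 0.05). Of 11 foregut endoderm markers, 7 had higher means (median 0.11), with Krt8 and Krt18 called higher and sums of 2209 to 2733, 1603 to 1978 and 1428 to 1573. Foxa1 and Foxa2, which define that tissue, were listed at 0 on 1 array each. Of 11 erythroid markers, 10 had higher means (median 0.19) and 0 were called by limma (2 at an unadjusted p under 0.05), with sums of 18846 to 24287, 19535 to 22715 and 19154 to 22442 that overlapped. Of 6 neural crest markers, 4 had higher means (median 0.25), Ednrb was called lower, and sums of 417 to 910, 470 to 597 and 582 to 648 also overlapped. Of 16 cardiomyocyte markers, 9 had lower means (median -0.01) and Myh7 was called higher.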

How the data were processed

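RNA of pooled hearts was amplified from 50 ng of total RNA and hybridised to 11 one-colour arrays (labels' protocols). The authors deposited 1 linear intensity value per probe set, made with PLIER, per the submitters' processing notes. How background and scale were handled is not given in the sources used. From the deposited intensity, log2(value + 16) was computed and quantile normalised, because array medians spanned 0.47. Without 64 control probe sets, 45037 were tested with limma 3.58.1 in R 4.3.3 on all 11 arrays, with 1 coefficient per genotype, an intensity trend and two-sided contrasts (8 residual degrees of freedom, 15.07 moderated), with Benjamini-Hochberg adjustment for each contrast and for the F-test. The code was tested on simulated data. No array column was left unused.

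Symbols came from the platform's annotation, and 34945 probe sets had 1 symbol. The 90 members came from 179 probe sets (39 genes with 1, 51 with several), all matched RefSeq, and 10 further probe sets that carry several symbols were left out. Named were the called members, in each complex the 3 with the smallest p and the 2 with the most positive difference, the paralog sets, and up to 3 called genes per list; other genes were chosen after their values were seen, as stated beside them. Complexes were taken from symbol prefixes. The members and lists were chosen with earlier results of these data known. Alternatives changed the offset, scaling, filter, model, probe set choice and arrays used.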

Additional observations from a re-analysis of the deposited data

Results flagged for a closer look

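Among the 5 CKO arrays, 112 sets of values were tested with Dixon's criterion for a single array far from the rest, and 5 met it. The sets are of unlike kinds and not independent, so this count was not compared with a chance rate. None of the 90 members and none of the 6 complex medians was among them. CKO replicate 2 stood apart in 3: the second Gata4 probe set (6.42, against 8.26 to 8.81 in the other CKO arrays), the mitochondrially encoded ND5 (10.45, against 11.82 to 12.02) and the 3' minus 5' difference of beta-actin (1 log2 unit, against 0.32 to 0.44). CKO replicate 3 stood apart in mean deposited intensity (117.2, against 170.4 to 175.1) and in the median of the foregut endoderm markers relative to control (0.64, against -0.14 to 0.07).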

How the results depend on the processing

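There were 26 alternatives, of which 11 left out 1 array and 2 were chosen after the data were seen (the deposited scale and median centring, each with CKO replicate 3 left out). In CKO minus control, 5 members were called; the count was 1 on the deposited scale, 3 after median centring, 11 with dim probe sets filtered, 1 without the intensity trend, 0 in a plain linear model, 17 with array weights, 1 with only the 2 groups fitted, 11 with CKO replicates 2 and 3 left out, 8 and 1 in the added settings, and 0 to 8 with 1 array left out. Calls over all tested probe sets in that comparison moved as well. As reported 377 were higher and 255 lower, against 45 and 47 on the deposited scale and 142 and 220 after median centring. They were 520 and 482 with the filter, 161 and 135 in the plain model and 1222 and 1171 with weights. In CKO minus double heterozygous, the members' count of 1 became 2 with the filter, 0 in the plain model and 7 with weights. It was 4 without CKO replicates 2 and 3, and 0 to 1 with 1 array left out. The F-test's 4 became 1, 2, 8, 1, 0 and 12 under deposited scale, median centring, filter, no trend, plain model and weights, 8 without CKO replicates 2 and 3, 1 after median centring without CKO replicate 3, and 1 to 7 with 1 array left out. Whether the labels' replicate numbers pair the arrays was not settled. Same-number deviations correlated from -0.056 to 0.15 in 9 pairs (median 0.055), and the other 30 pairs from -0.135 to 0.183 (median -0.01). Replicate numbers 4 and 5 occur only in CKO, so a replicate block takes up those arrays. The log2 differences of that fit are thus those of CKO replicates 1 to 3, without replicates 4 and 5. With the block 2 members were called in CKO minus control and 1 by the F-test, and Cox6a2 (0.01) and Uqcr11 (0.08) changed sign. With the block the members' median shrank to -0.08 (62 lower means) in CKO minus control and to -0.01 (47 lower means) in CKO minus double heterozygous, and that of complex I to -0.02, of III to -0.07, of IV to -0.08 and of V to -0.10. With 1 array left out, medians ran from -0.17 to -0.11 for all members in CKO minus control, -0.13 to -0.03 in CKO minus double heterozygous, -0.09 to -0.02 in double heterozygous minus control, and -0.16 to -0.05 for complex I (-0.05 without CKO replicate 4). Medians on the deposited scale and after median centring were -0.29 and -0.30 for all members, -0.25 and -0.26 for complex I, -0.40 and -0.41 for II, -0.21 and -0.22 for IV, -0.28 and -0.29 for V, and -0.20 and -0.25 for all members in CKO minus double heterozygous; after median centring without CKO replicate 3 they were -0.26 for all members, -0.40 for II (-0.32 on the deposited scale), -0.21 for IV, -0.25 for V and -0.21 for all members in CKO minus double heterozygous. Small differences changed sign: Atp5e (-0.10, -0.11, 0 with weights, -0.05 without CKO replicates 2 and 3, -0.04 in an added setting, -0.07 to 0.12 with 1 array left out), Atp5g2 (-0.12, -0.13, added -0.04 and -0.12, -0.02 to 0.08 with 1 array left out), Ndufa4 (-0.06, -0.07, added -0.06), Cox8b (added 0.01, -0.19 to 0.05 with 1 array left out), Cox8c (-0.08 without CKO replicates 2 and 3, added -0.05, -0.01 to 0.30 with 1 array left out) and Uqcrq (0.39 on a probe set with no cross-matching suffix). The cause of these last sign changes was not tested. The medians of complex III and of the complex I assembly factors ran from -0.34 to -0.07 and from -0.48 to -0.27 over the 26 settings. In each setting they moved by less than the SD of the group's medians among the 5 CKO arrays. That limit is wide where these arrays differ, as in complex III, with -0.40 in CKO replicate 4 and 0.06 in CKO replicate 2. It is thus no measure of stability. No member was called in double heterozygous minus control in any setting. Ndufa4l2 was called in 23 of 26 settings in both CKO comparisons, Ndufaf2 in 15, and Ndufv3, Ndufaf6 and Atp5g1 in 14 each. Detection calls were not used here, so dim members (8 had a mean log2 under 7) may include transcripts that the probe sets hardly measure.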

Other observations

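Of the subunits encoded by mitochondrial DNA, ND5 of complex I was the 1 matched by symbol on the array. It read 11.86, 10.45, 12.02, 11.95 and 11.82 in CKO arrays, 11.75, 11.76 and 11.93 in double heterozygous arrays and 11.69, 11.62 and 11.92 in control arrays. With 4 of 5 CKO arrays in the range of the other groups or just above it, the log2 difference of CKO minus control was -0.12.

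Several members had probe sets near the lowest values of the arrays. Ndufb4, an accessory subunit of complex I, had a mean of 4.38, Cox7b2 of 4.41, and Cox8b of 5.18. Cox7b2 was listed at 0 on 1 array and was the only member with a 0.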
